A study of Mus musculus with 6 samples.

Results

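The cytosolic ribosomal protein genes of mouse cortical neurons were examined for completeness of splicing after expression of N40K, the N-terminal fragment of the U1 snRNP protein U1-70K. The genes were taken by symbol: every gene whose symbol starts with Rps, Rpl or Rplp followed by a digit, leaving out 10 ribosomal protein S6 kinase (Rps6k) symbols and 3 symbols marked as pseudogenes. This gave 80 of the 15705 scored genes, 32 named Rps for the small subunit and 48 named Rpl for the large subunit. One of the 32, Rps19bp1, encodes a protein that binds RPS19 and is not itself part of the ribosome, so counts are also given over the 79 other genes.

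Neurons came from C57BL/6 embryos at embryonic day 18 and received lentivirus for 3 days from day 7 in vitro. The N40K group (3 libraries) received FCK1.3GW-N40K, in which N40K is driven by a short CaMKII promoter; the control group (3 libraries) received FCK1.3GW, with EGFP behind that promoter. Both vectors carry the WPRE element and LTRs, and cells in which the CaMKII promoter is inactive would not be expected to make N40K or EGFP. Whether the libraries of a group came from separate cultures is not in the labels; the p-values therefore cover the spread between these libraries alone, which could be technical.

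The values are the Sd scores deposited for each gene and library, read here as splicing deficiency, a ratio that is higher when less of a gene's RNA is fully spliced. The last printed decimal is 0.0001, with the formula, any scaling for gene length and the read depth not given in the sources used here. A score is not an expression level: all 6 neuron markers examined and all 4 astrocyte markers had a score, as did 2 of 3 oligodendrocyte markers (not Mbp) and 2 of 3 microglia markers, and the cell type of the cultures cannot be checked from them. The scores of 2 of the 6 neuron markers rose in N40K neurons (Camk2a and Syn1), while 3 of the 6 had ratios under 1. The score of 1 of the 2 microglia markers rose (Csf1r, 2.76-fold). Of the astrocyte and oligodendrocyte markers, 0 of 4 and 0 of 2 passed (limma, also 0 at an unadjusted p under 0.05). Over all genes 21.5% rose and 4.11% fell, so counts this small do not set the cell types apart. The part of other cell types in the results was not tested. The Spearman rho across genes was 0.983 to 0.987 between libraries of 1 group and 0.957 to 0.969 between an N40K and a control library; genes are no replicates.

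A ribosome is built from a small subunit, which reads the messenger RNA, and a large subunit, which joins the amino acids and passes the new protein out through a tunnel. Ribosomal protein genes are short, highly expressed and compact, and many carry small nucleolar RNAs (snoRNAs), the guides for ribosomal RNA modification, inside their introns. The U1 snRNP marks the start of each intron by pairing with the 5′ splice site, which spans the last 3 bases of the upstream exon and the first bases of the intron. In neurons, ribosomes lie in the cell body and also in dendrites and axons, where proteins are made locally.

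The exon sides of the splice sites are shown for the small subunit proteins with the lowest ratios of N40K to control score (Rps19bp1 aside), Rps28 (chromosome 17) and Rps26 (chromosome 10), for the paralogs Rpl22 (chromosome 4) and Rpl22l1 (chromosome 3), for Rpl39 (chromosome X), and for Rpl41 (chromosome 10), which had the highest score of all the members. Each line gives 10 bases of the upstream exon and 10 of the downstream exon, 5′ to 3′, at a junction within the coding sequence, from GENCODE release M21 (GRCm38). Capitals mark the last 3 exon bases, the exon part of the 5′ splice site.
Rps28 exon 1 to exon 2: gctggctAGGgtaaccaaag
Rps28 exon 2 to exon 3: gtgcacgCAGgtgcgagtgg
Rps26 exon 2 to exon 3: gtcttcgACGcctacgtgct
Rps26 exon 3 to exon 4: cagacctGCTggcgctgcac
Rpl22 exon 1 to exon 2: ggcgcctGTGaaaaagcttg
Rpl22 exon 2 to exon 3: tgccaatTTTgagcagttcc
Rpl22 exon 3 to exon 4: tctccaaAAGgtatttgaaa
Rpl22l1 exon 2 to exon 3: tggaaatTTTgaacagtttc
Rpl22l1 exon 3 to exon 4: tctccaaAAGgtatttgaaa
Rpl39 exon 2 to exon 3: acaaaatCAGgtacaactct
Rpl41 exon 2 to exon 3: gagagcgAAGtggcggaaga
Rpl41 exon 3 to exon 4: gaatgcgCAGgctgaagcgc

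Scores of most cytosolic ribosomal protein genes were close in both groups. Of the 80 genes, 2 rose in N40K neurons (Rpl22l1 and Rpl39), 9 fell and 69 did not pass the test (limma, Benjamini-Hochberg adjusted p under 0.05 over all 15705 genes). Over all genes 21.5% rose and 4.11% fell, against 2.5% and 11.2% of the ribosomal protein genes. Without Rps19bp1, 2 of 79 rose and 8 fell. At an unadjusted p under 0.05 the counts were again 2 higher and 9 lower of the 80 members, and 4897 higher and 1150 lower of all 15705 genes. The share of all genes that was lower is thus larger than by adjusted p, while that of the members is the same.

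The ratio of the mean N40K score to the mean control score lay between 0.9 and 1.1 for 54 of the 80 genes (67.5%), against 30.2% of all genes. Its median was 0.99 over the members and 1.11 over all genes. The median change on the log2(score + 0.01) scale was -0.01 over the members and 0.06 over all genes. Some members had groups that did not overlap: N40K was the higher group in 5 (33.6% of all genes) and the lower group in 10 (8.67% of all genes).

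The number of falls depended on scaling and on single libraries. The median score of all genes was 0.0146, 0.0153 and 0.0163 in the N40K libraries and 0.0136, 0.0127 and 0.0133 in the control libraries, a difference of 0.13 in log2 between the groups' library medians. With each library centred on its median, 1 member rose and 21 fell, against 9.75% and 18.4% of all genes. Centring each library on its genes' median deviation gave 1 rise and 14 falls (14.2% and 9.67% of all genes), and quantile normalization gave 1 rise and 17 falls (12.9% and 12.0%). All 3 rescalings acted on log2(score + 0.01), where centring moves scores far below 0.01 by as much as higher ones. Falls added among low scores can therefore come from the shift itself. As deposited, the falls numbered 4 without N40K replicate 2 (2.15% of all genes) or control replicate 1 (1.93%), and 5 without N40K replicate 3 (3.02%) or control replicate 2 (2.56%).

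**Figure D1:**
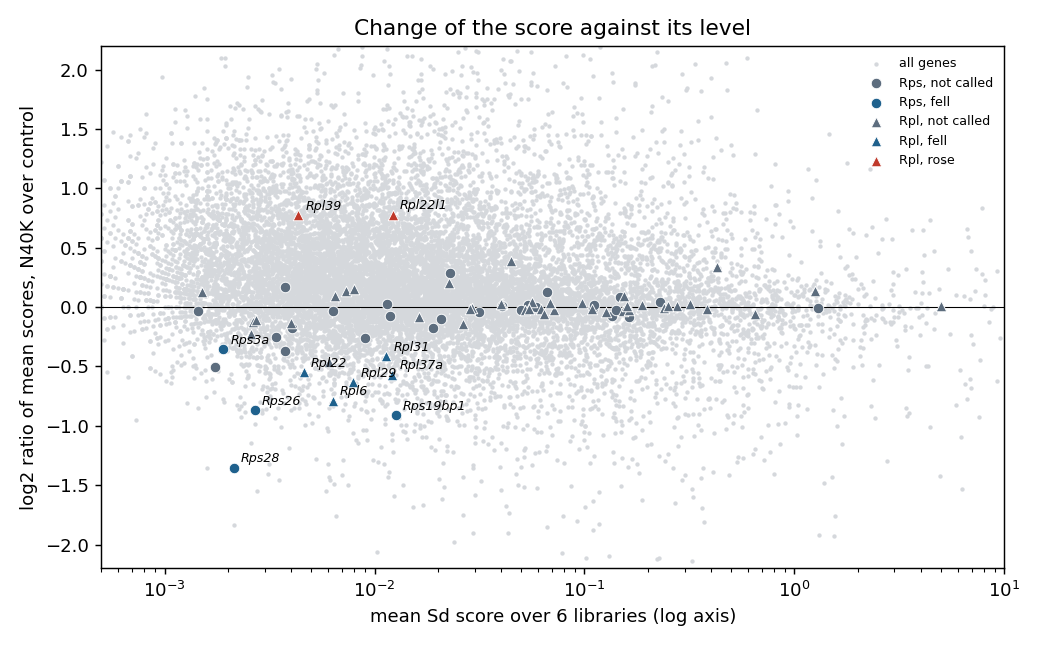
The log2 ratio of the mean N40K score to the mean control score (vertical axis) against the mean score over the 6 libraries (horizontal log axis), for all genes (light grey dots) and for Rps (circles) and Rpl (triangles) members, red where they rose, blue where they fell and dark grey where they did not pass; genes beyond the axis limits are not drawn. Members with a mean score of at least 0.02 lie close to 0, with ratios of means of 0.907 to 1.31, and the 11 called and named members all have mean scores under 0.02.

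Falls were found in both subunits. In the small subunit 0 of 32 genes rose (limma; also 0 at an unadjusted p under 0.05) and 4 fell, or 3 of 31 without Rps19bp1. In the large subunit 2 of 48 rose and 5 fell. The shares were 0% and 12.5% for the small subunit (0% and 9.68% without Rps19bp1) and 4.17% and 10.4% for the large subunit, against 21.5% and 4.11% of all genes. The median ratio of means was 0.978 for small subunit genes and 0.992 for large subunit genes, and the median log2 changes were -0.02 and -0.01. The difference between the subunits was not tested. Centring each library on its median gave 10 small subunit and 11 large subunit falls, where 18.4% of all genes fell.

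The level of the score differed between the subunits in all 6 libraries. The median score of the large subunit genes was 0.0534, 0.0449 and 0.0485 in N40K libraries 1, 2 and 3 and 0.0482, 0.0483 and 0.045 in control libraries 1, 2 and 3. The median score of the small subunit genes was 0.0224, 0.0195 and 0.0251 in N40K libraries and 0.0209, 0.0213 and 0.0219 in control libraries. The lowest large subunit median thus lay above the highest small subunit median, while within each subunit the N40K and control libraries overlapped. Members of a subunit are different genes and not replicates, so this is a description.

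**Figure D2:**
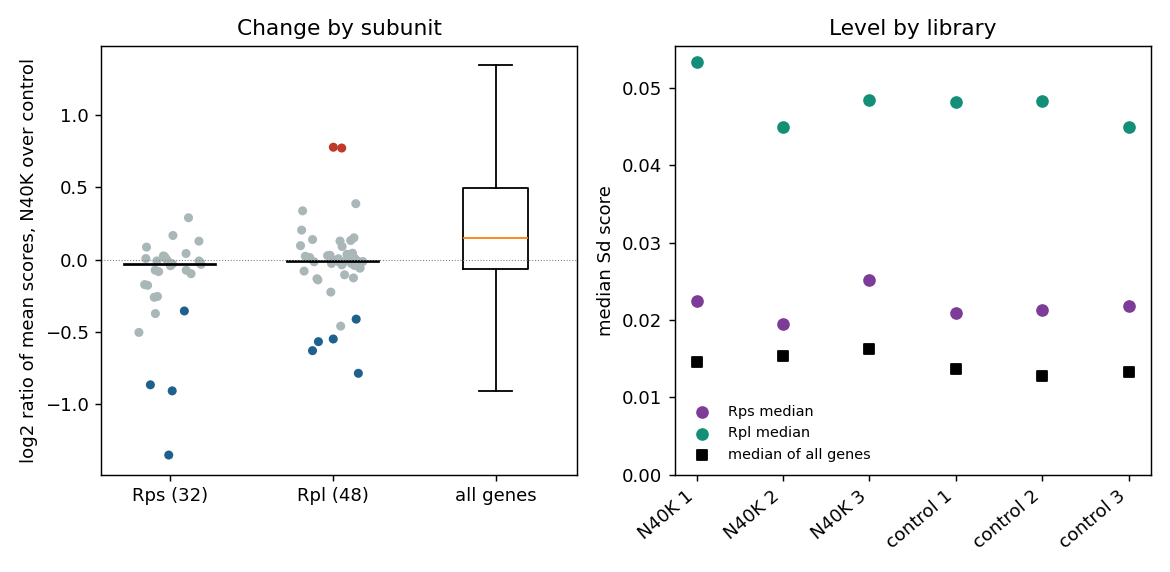
Left, the log2 ratio of the mean N40K score to the mean control score for each Rps and Rpl member, with a bar at the median (red rose, blue fell, grey did not pass), and a box for all genes that spans the quartiles with a line at the median and whiskers to 1.5 times the interquartile range, outliers not drawn; the medians as ratios are 0.978, 0.992 and 1.11. Right, the median score of the Rps members, the Rpl members and all genes in each library, where the Rpl median lies above the Rps median in all 6 libraries.

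Among proteins at the mRNA path of the small subunit, Rps28 and Rps26 fell. Both sit where messenger RNA leaves the subunit. Rps28 had a score of 0.0012 in each of the 3 N40K libraries, against 0.0030, 0.0030 and 0.0032 in the control libraries. This was the lowest ratio of the 80 genes, 0.391, with a log2 change of -0.22 ± 0.01 (SE) and a limma adjusted p of 0.00131. The groups were far apart relative to their spread, although 0.0012 is only a small multiple of the last printed decimal.

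Rps26 scored 0.0021, 0.0017 and 0.0019 in N40K neurons and 0.0039, 0.0030 and 0.0035 in control neurons. Every N40K library was below every control library, with a ratio of 0.548 (limma adjusted p = 0.0101). Of the 7 genes listed for mRNA entry, decoding and exit, these 2 fell and 0 rose by limma. At an unadjusted p under 0.05, 0 were higher. Over all genes 4.11% fell and 21.5% rose. The list was made with earlier results of these data known, so its count is a description. Rps2, at the entry of the mRNA channel, averaged 0.158 ± 0.00785 in N40K neurons and 0.168 ± 0.0179 in control neurons (SD, n = 3 each) and did not pass. Rps3a, which lies on the platform near the mRNA exit, was not on that list. It scored 0.0018, 0.0016 and 0.0016 in N40K neurons and 0.0021, 0.0022 and 0.0021 in control neurons (ratio 0.781, limma adjusted p = 0.0245). Its call ended in 7 of 14 alternatives, among them leaving out any library other than N40K replicate 1 (highest adjusted p = 0.165, with eBayes without trend).

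The other genes of the head and body of the small subunit did not pass. Rps18, at 0.0013, 0.0014 and 0.0016 in N40K neurons and 0.0026, 0.0019 and 0.0016 in control neurons, had a ratio of 0.705 with a limma adjusted p of 0.155. Rps6, the protein phosphorylated by S6 kinases, scored 0.0036, 0.0041 and 0.0037 in N40K neurons and 0.0044, 0.0041 and 0.0044 in control neurons (adjusted p = 0.155). In both genes the groups touched at 1 shared value. Both passed as falls under each of the 3 rescalings, with adjusted p-values of 0.00922, 0.0193 and 0.0238 for Rps18 and 0.0137, 0.0204 and 0.00856 for Rps6 (centring on the median, on the median deviation, and quantile normalization). Rps29, a zinc-binding protein of the head with the lowest mean score of the members, averaged 0.00143 in N40K neurons and 0.00147 in control neurons. With each library centred on its median, Rps29 too passed as a fall (log2 change -0.134, limma adjusted p = 0.0327). At such low scores a pass after rescaling is thus no separate evidence of a fall, for Rps18 and Rps6 as well.

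Rps19bp1, the SIRT1 regulator that entered by its symbol, scored 0.0088, 0.0073 and 0.0102 in N40K neurons and 0.0174, 0.0152 and 0.0168 in control neurons. The ratio was 0.532, the log2 change -0.50 ± 0.07 (SE), and the limma adjusted p 0.00777. No N40K score reached the lowest control score.

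In the large subunit, Rpl37a, a zinc-binding protein, fell to 0.0103, 0.0097 and 0.0094 in N40K neurons, against 0.0140, 0.0158 and 0.0138 in control neurons. The ratio was 0.674 and the log2 change -0.31 ± 0.05 (SE; limma adjusted p = 0.0118). The groups did not overlap, and each varied far less than the distance between them. Rpl6, on the outer face of the large subunit, scored 0.0060, 0.0032 and 0.0047 in N40K neurons and 0.0086, 0.0076 and 0.0078 in control neurons (ratio 0.579, adjusted p = 0.0316). Rpl29, also described as a heparin-binding protein, scored 0.0052, 0.0061 and 0.0073 in N40K neurons and 0.0110, 0.0097 and 0.0081 in control neurons (ratio 0.646, adjusted p = 0.0432). In both genes the N40K libraries were all below the control libraries but spread widely. The call of Rpl6 ended without the eBayes trend and when any library other than N40K replicate 1 was left out (highest adjusted p 0.094). The call of Rpl29 ended without control replicates 1 or 2 or N40K replicates 1 or 2. The Rpl29 call also ended without the eBayes trend, without the lowest 25% of genes and with the replicate number as a block (highest 0.128, with the block).

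Of the 8 genes listed for the peptide exit tunnel, 1 rose and 1 fell (12.5% each), against 21.5% rising and 4.11% falling over all genes. Rpl39, a very small protein that lines the tunnel, rose to 0.0058, 0.0054 and 0.0052 in N40K neurons, against 0.0034, 0.0021 and 0.0041 in control neurons. The ratio was 1.71 and the log2 change 0.23 ± 0.06 (SE; limma adjusted p = 0.0348). The N40K libraries lay close together above a wider control group. Its call ended in 11 of 15 alternatives, including the 3 rescalings and the removal of any N40K library or of control replicate 1 (highest adjusted p = 0.241, with each library centred on its median), and its change stayed positive in all of them.

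Rpl31, at the mouth of the tunnel, fell to 0.0105, 0.0094 and 0.0094 in N40K neurons, against 0.0128, 0.0136 and 0.0126 in control neurons (ratio 0.751, limma adjusted p = 0.0215). Its groups did not overlap, but the call ended without any library other than N40K replicate 1 and with the replicate number as a block (highest adjusted p = 0.0753, with the block). The 6 other genes of the 8 listed for the tunnel did not pass.

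The paralogs Rpl22 and Rpl22l1 went in opposite directions. Rpl22 encodes an RNA-binding protein of the large subunit that mice can largely do without outside T-cell development, and Rpl22l1 encodes its close relative. Rpl22 fell to 0.0039, 0.0038 and 0.0035 in N40K neurons, against 0.0054, 0.0049 and 0.0061 in control neurons (ratio 0.683, log2 change -0.17 ± 0.03, limma adjusted p = 0.0181). Rpl22l1 rose to 0.0141, 0.0148 and 0.0174 in N40K neurons, against 0.0090, 0.0095 and 0.0085 in control neurons (ratio 1.71, log2 change 0.42 ± 0.06, limma adjusted p = 0.00841). Neither pair of groups overlapped.

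Both genes have 4 exons, and the junction of exons 3 and 4 printed above is identical in them over all 20 bases. The junction of exons 2 and 3 matched at 16 of 20 bases and ends in TTT in both. At those junctions the last 3 exon bases are the same in both genes, and the intron sides of the sites were not analysed here. The call of Rpl22 ended without control replicate 1, N40K replicate 2 or N40K replicate 3 and with the replicate number as a block (highest adjusted p 0.0652, with the block), and that of Rpl22l1 held in all 16. Reads from stretches that paralogs share can be counted for either gene.

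Of the other paralogs, Rpl7l1 averaged 0.0243 ± 0.00125 in N40K neurons and 0.0211 ± 0.00102 in control neurons (SD, n = 3 each). Its 3 N40K scores were all above its control scores, with a limma adjusted p of 0.151, the smallest among the members that did not pass. Rps27l and Rpl3l, the muscle-type relative of Rpl3, also did not pass.

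**Figure D3:**
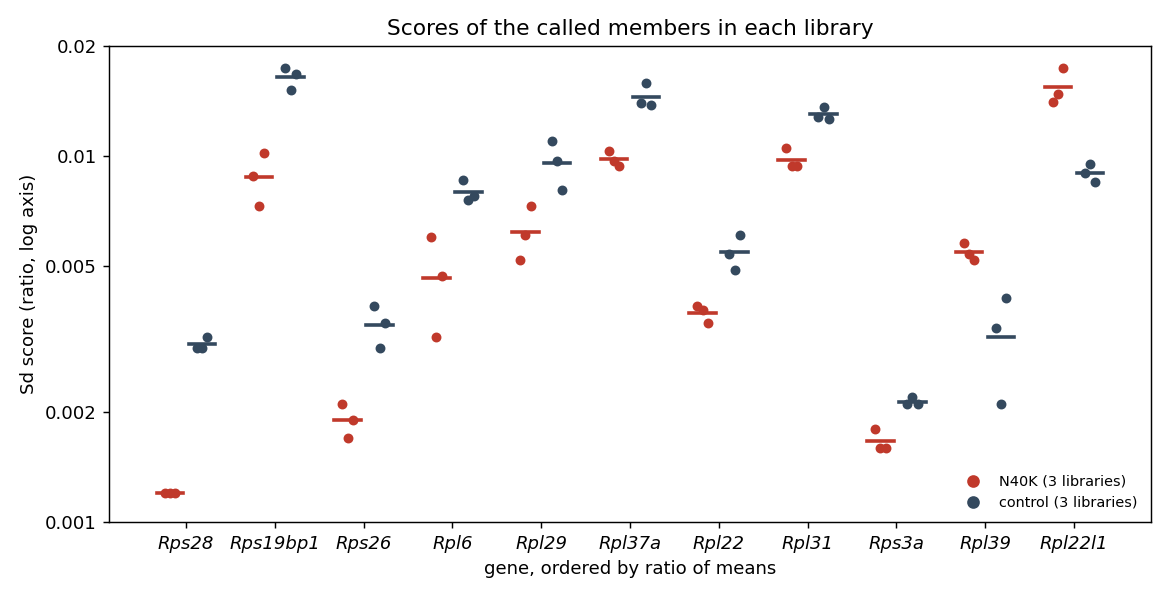
Sd score (log axis) of the 11 called members in each of the 3 N40K libraries (red, left of each pair) and the 3 control libraries (dark, right), with a bar at each group mean. Genes are ordered by the ratio of means. The groups do not overlap in any of the 11 genes; Rps28 is lowest in N40K neurons, at 0.0012 in each library, and Rpl39 and Rpl22l1 are the only genes of the 11 with N40K above control.

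The P stalk, the 5S RNP and the ubiquitin fusion gave no call. The P stalk recruits elongation factors to the ribosome. Its genes Rplp0, Rplp1, Rplp2 and Rpl12 had ratios of 0.96, 1.11, 0.99 and 0.962, with 0 calls by limma and 0 at an unadjusted p under 0.05. Rplp0 had all N40K scores below the control scores (0.0632, 0.0638 and 0.0611 in N40K, 0.0651, 0.0658 and 0.0651 in control) and Rplp1 had all above (0.0086, 0.0086 and 0.0080 in N40K, 0.0078, 0.0078 and 0.0071 in control), but neither difference passed (adjusted p = 0.598 and 0.229).

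Rpl5 and Rpl11 carry the 5S ribosomal RNA into the large subunit and bind the p53 regulator MDM2. Rpl5 averaged 0.0514 ± 0.0015 in N40K neurons and 0.0523 ± 0.00137 in control neurons. Rpl11 averaged 0.00157 ± 0.000208 in N40K neurons and 0.00143 ± 0.000231 in control neurons (SD, n = 3 each). Neither gene passed. Rps27a, made as a fusion with ubiquitin, scored 0.242, 0.226 and 0.23 in N40K neurons and 0.203, 0.216 and 0.258 in control neurons, and its N40K scores lay within the control range.

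Mutations in 20 of the human counterparts listed cause Diamond-Blackfan anaemia, an inherited failure of red cell production. Of these genes, 19 had a score, all of them members. By limma 3 of the 19 fell (Rps28, Rps26 and Rpl31, 15.8%) and 0 rose, also with 0 higher at an unadjusted p under 0.05. The shares that fell and rose were 11.2% and 2.5% over all members and 4.11% and 21.5% over all genes. The median log2 change of the 19 was -0.02, against -0.01 over all members and 0.06 over all genes.

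The level of the score ranged widely among the members, from 0.00145 for Rps29 to 4.98 for Rpl41 as means over the 6 libraries. Rpl41, the smallest ribosomal protein, scored 4.98, 4.93 and 5.05 in N40K neurons and 5.05, 5.05 and 4.79 in control neurons. Rps21 averaged 1.29 ± 0.0203 in N40K neurons and 1.3 ± 0.0263 in control neurons. Rpl10a averaged 1.32 ± 0.101 in N40K neurons and 1.2 ± 0.0983 in control neurons (SD, n = 3 each for both genes). The groups overlapped in all 3 genes between N40K and control.

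A score of 0.1 or more was found for 25 members (31.2%), against 16.7% of all genes. At the other end, the lowest means in the large subunit were those of Rpl11, Rpl34 and Rpl24. Rpl34 averaged 0.00237 ± 0.000153 in N40K neurons and 0.00277 ± 0.000462 in control neurons (SD, n = 3 each). The row named Rpl24 averaged 0.00253 in N40K neurons and 0.00277 in control neurons, but its identifier belongs to the neighbouring gene Zbtb11 in GENCODE M21, so which gene it describes is uncertain.

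Calls were found at the low end of the score. All 11 called members had a mean score under 0.02. In that range there were 32 members, of which 2 rose and 9 fell, against 27.9% and 3.36% of all genes in the same range. At 0.02 and above there were 48 members, of which 0 passed (limma; also 0 at an unadjusted p under 0.05), against 13.0% of all genes rising and 5.08% falling. The bound of 0.02 was chosen after the values were seen. Over the 17 alternatives 23 members passed at least once, 0 of them with a mean score of 0.02 or more. Those beyond the main fit passed only under the 3 rescalings.

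The spread between libraries was smaller at high scores. The median coefficient of variation of the members was 2.28% in N40K libraries and 3.24% in control libraries for mean scores of 0.1 and above, and 6.95% and 13.6% under 0.005. The test did not use this spread alone, since eBayes with a trend also draws on genes of similar score. Rplp0, with coefficients of variation of 2.26% (N40K) and 0.619% (control), still had an SE of 0.061 in log2. Small changes at high scores could therefore miss the threshold. The genes at 0.02 and above with the highest ratios were Rpl30, at 1.31, and Rpl13, at 1.26, the latter named after its value was seen. Rpl30, whose yeast counterpart blocks splicing of its own transcript, scored 0.0550, 0.0532 and 0.0443 in N40K neurons and 0.0443, 0.0428 and 0.0295 in control neurons. The groups met at 0.0443, and the limma adjusted p was 0.171.

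In C. elegans the counterparts of Rpl3, Rpl7a, Rpl10a and Rpl12 are known for transcripts that are spliced in 2 ways, one of which is degraded; Rpl3 and Rpl7a were named after their values were seen. Rpl3 averaged 0.0404 ± 0.00114 in N40K neurons and 0.0398 ± 0.00131 in control neurons. Rpl7a averaged 0.249 ± 0.0036 in N40K neurons and 0.248 ± 0.00844 in control neurons. Rpl12 averaged 0.639 ± 0.0167 in N40K neurons and 0.665 ± 0.043 in control neurons (SD, n = 3 each for the 3 genes). None of the 4 passed, and in each the groups overlapped.

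The members share a compact gene structure that the symbol rule did not use. The 79 members whose identifier matched their symbol had a median of 4 introns, a gene length of 3368 bases and an mRNA of 838 bases, against 8 introns, 25453 bases and 2898 bases over the 14911 genes matched to GENCODE M21. Small and large subunit genes both had a median of 4 introns. Across the members the mean score had a Spearman correlation of 0.404 with the number of introns and -0.204 with gene length, and across all matched genes these were -0.266 and -0.568. The points share the 6 libraries, and the values are descriptions.

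snoRNA genes lay inside 29 of the 79 members (36.7%), against 1.78% of all matched genes. They numbered 55 in all, in 9 small and 20 large subunit genes. Rpl4 held 5, and Rpl13a held 4 (Snord32a, Snord33, Snord34 and Snord35a); both genes were named after their values were seen. The median mean score was 0.111 for the 29 hosts and 0.0176 for the 50 members with no snoRNA inside. Of the hosts 24 had a mean score of at least 0.02, as did 24 of the 50 others.

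Outside the ribosomal protein genes, snoRNA hosts did not have a higher median score than all genes. The 236 host genes outside the ribosomal proteins had a median mean score of 0.0109, against 0.0148 over all genes. These groups were not matched for gene length, with which the mean score had a Spearman correlation of -0.568 across all matched genes. A link between hosting and the score at equal length was not tested. Of the 29 host members 1 rose (Rpl39) and 2 fell (Rpl6 and Rps3a), and of the 50 others 1 rose and 7 fell. Of the 236 other host genes 80 rose and 12 fell. The shares that rose and fell were 3.45% and 6.9% of the host members, 2% and 14% of the other members and 33.9% and 5.08% of the other host genes, against 21.5% and 4.11% of all genes. The differences between these groups were not tested, and the use of reads from snoRNA loci in the score was not tested.

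**Figure D4:**
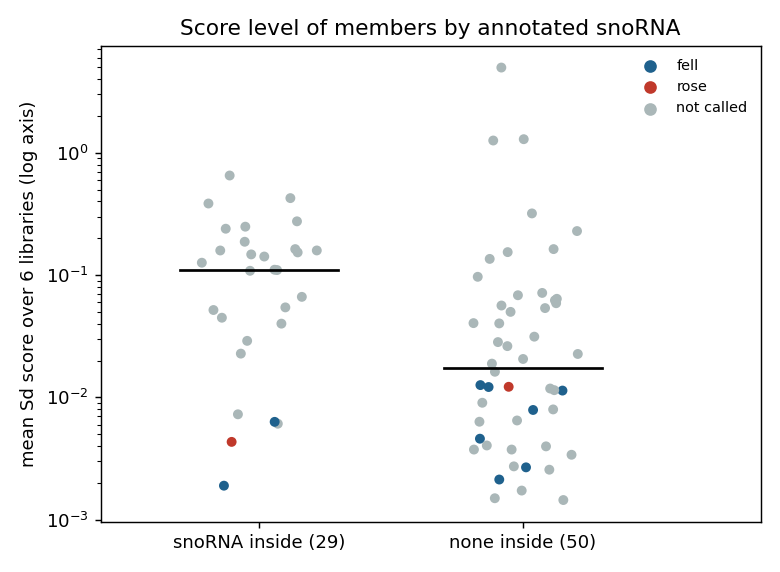
Mean score over the 6 libraries (log axis) of the 29 members with a snoRNA gene inside and the 50 with none, each point 1 gene (red rose, blue fell, grey did not pass), with a bar at each median. The medians are 0.111 and 0.0176, and the highest member, Rpl41, holds no snoRNA.

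Exon ends were compared with those of all genes. Of the members' 350 exon junctions, lying anywhere in the transcript, 38.3% followed an exon that ends in CAG or AAG. These are the letters of the consensus that pairs with U1. Over all genes the share was 42.9% of 154412 junctions, counted in the same way. An exon ending in G came before 82.0% of the members' junctions, against 81.1% over all genes. The share with CAG or AAG was 42.1% in small and 35.9% in large subunit genes. In the 9 genes that fell it was 27.3% (9 of 33 junctions), with 63.6% ending in G, and in the 2 genes that rose 2 of 5 junctions. Among the junctions printed above, those of Rps26 end in ACG and GCT, and those of Rpl41, which was not called, in AAG and CAG. Other called genes differed from Rps26. The junctions of Rps28, which fell, end in AGG and CAG. Those of Rpl22, which fell, end in GTG, TTT and AAG, and those of Rpl22l1, which rose, in TTT and AAG. The letters were read in the transcript direction only, junctions of 1 gene are not independent, and the shares are descriptions.

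Ribosomal protein genes have many processed pseudogenes, which lack introns, and reads shared with them could be counted for either locus; the effect on the scores was not tested. By GENCODE M21, 26 of 79 members overlap another gene, including Rps28, Rpl22l1 and Rpl31. The libraries were made with a stranded kit, with the use of strand in the score not given in the sources used here.

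A few ribosomal protein genes are missed by the symbol rule. Rpsa and Gnb2l1, now called Rack1, had ratios of 1.01 and 1.09. Fau scored 0.0081, 0.0089 and 0.0085 in N40K neurons and 0.0108, 0.0094 and 0.0129 in control neurons, with no overlap between groups (ratio 0.77, limma adjusted p = 0.107). None of these 3 genes passed by limma, and 1, Fau, had an unadjusted p under 0.05.

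Other genes of translation were listed beside them. Of 16 elongation and termination factors 7 rose (43.8%, against 21.5% of all genes) and 0 fell (limma; 1 lower at an unadjusted p under 0.05; 4.11% of all genes fell), with a median log2 change of 0.09. Etf1, the release factor that recognises stop codons, rose to 0.0062, 0.0058 and 0.0060 in N40K neurons, against 0.0030, 0.0028 and 0.0028 in control neurons (ratio 2.09, adjusted p = 0.00158). Its partner Gspt1 rose to 0.00617 ± 0.000115 in N40K neurons, against 0.00453 ± 0.000115 in control neurons, and the ribosome rescue factor Hbs1l rose 1.74-fold. These calls were made on scores in the range where the ribosomal protein calls lay.

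Assembly factors build the 2 subunits in the nucleolus. Of 41 small subunit assembly genes 8 rose, with the smallest p-values for Wdr36 (2-fold), Wdr75 (1.63-fold) and Utp15 (1.54-fold), and 1 fell, Utp14a, to 0.0157 ± 0.00225 in N40K neurons, against 0.0242 ± 0.000551 in control neurons (SD, n = 3 each). Of 40 large subunit assembly genes 3 rose, Rrp15 (2.07-fold), the giant ATPase gene Mdn1 (1.86-fold) and the helicase gene Ddx55 (1.83-fold), and 0 fell (limma; 1 lower at an unadjusted p under 0.05). The share that rose was 19.5% of the small subunit and 7.5% of the large subunit assembly genes, against 21.5% of all genes. The median log2 changes were 0.09 and 0.04, on either side of the 0.06 of all genes.

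Of the 73 genes of mitochondrial ribosomal proteins, which build the separate ribosome of mitochondria, 9 rose (12.3%, against 21.5% of all genes) and 7 fell (9.59%, against 4.11% of all genes), with a median log2 change of 0.01. Mrpl35 rose 3.48-fold, to 0.0396 ± 0.000896 in N40K neurons, against 0.0114 ± 0.00146 in control neurons (SD, n = 3 each; limma adjusted p = 0.00138). Mrps30 rose 2.37-fold and Mrpl33 1.8-fold. The differences between these lists and the cytosolic ribosomal protein genes were not tested.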

How the data were processed

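RNA from 6 libraries of mouse neuron cultures, 3 with N40K and 3 with the control vector, was sequenced from poly(A) RNA with a stranded kit, per the labels' protocols. The authors deposited 1 table of scores named Sd, a linear ratio per gene and library, with formula, gene annotation, filters and strand use not given in the sources used here. CASAVA, STAR, BWA, bedtools 2.16.1 and the build mm9 are named, without roles or order, per the submitters' processing notes. Without read totals the depth is unknown, and intervals that would need it are left out. Scores ranged from 0.0001 to 2886.7.

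Columns were assigned to libraries by their names, 0 value columns were left unused, and 0 pairs of columns were identical. The test was limma 3.58.1 (R 4.3.3; lmFit, then eBayes with a trend) on log2(score + 0.01), 2-sided; p-values were adjusted by Benjamini-Hochberg across the 15705 genes, and those under 0.05 were called. The filter, a score above 0 in at least 3 libraries, removed 0 genes. The log2 scale understates the change of low scores; ratios of means are given too. "Rose" and "fell" refer to scores as deposited, without scaling between libraries. The fit was tested on simulated data.

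The members, the lists of translation genes and markers, and the tests were chosen with earlier results of these data known. Members named are all those called, the 3 highest and 3 lowest mean scores in each subunit, the 3 largest ratios up and down, the 3 uncalled members with the smallest adjusted p, and Rps28, Rps26, Rpl37a and Rpl39; of each translation list, up to 3 called genes with the smallest p. Other genes are named by role, or as stated after their values were seen. Gene structure, snoRNAs and junction sequences came from GENCODE M21, matched by Ensembl identifier (94.9% of genes); it is on another build than mm9, so no coordinates are printed. Alternatives were pseudocounts of 0.001 and 0.1, none with a mean score of at least 0.002, no filter, leaving out the lowest 25% of genes, 3 rescalings, eBayes without trend, arrayWeights, the replicate number as a block, and leaving out each library. Some genes are not reported here.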

Additional observations from a re-analysis of the deposited data

How the results depend on the processing

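Rps28, Rps26, Rps19bp1, Rpl37a and Rpl22l1 kept their calls in every alternative that included them, and no called member reversed in any. Members that rose, 2 as deposited, numbered 1 with a pseudocount of 0.001 or none, without the lowest 25% of genes, under each of the 3 rescalings, without the eBayes trend and with the replicate block. Members that fell, 9 as deposited, numbered 4 without the lowest 25% of genes (1 small, 3 large subunit), 21 with each library centred on its median (10 small, 11 large), 14 on the median deviation (7 small) and 17 after quantile normalization (8 small, 9 large). The large subunit had 3 falls without the eBayes trend. Centring on the median gave median log2 changes of -0.15 for small and -0.14 for large subunit genes. With a library left out, 1 to 2 members rose and 4 to 8 fell, 1 to 5 of them in the large subunit. Over all genes, rises and falls numbered 1968 and 483 without the lowest 25%, 1531 and 2883 after median centring, 2235 and 1518 with the median deviation, 2022 and 1883 after quantile normalization, and 1613 to 3729 and 303 to 486 with a library left out. Where calls changed, the cause was not tested.

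Same-numbered libraries did not deviate together (correlations of -0.0712, 0.0376 and -0.0201; 1 of 3 N40K and 1 of 3 control libraries correlated best with its own number), so the numbers were not taken as pairs. With the replicate block 1 member rose and 5 fell, 2 of these in the large subunit, and 1770 of all genes rose and 328 fell.

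Log2 changes of 6 uncalled members among those named changed sign, and the median of the large subunit was 0.0021 without control replicate 2. With each library centred on its median these were Rpl11 (-0.114), Rpl41 (-0.123) and Rps27a (-0.0836), and on the median deviation Rpl11 (-0.0487), Rpl41 (-0.0581) and Rps27a (-0.0187). Quantile normalization gave Rpl11 -0.0353, Rps21 0.0551 and Rps27a -0.0502, and arrayWeights gave Rpl41 -0.00074. With a library left out the changes ran from -0.0183 to 0.0205 for Rpl41, from -0.0257 to 0.0022 for Rps21, from -0.0224 to 0.143 for Rps27a, from -0.0145 to 0.0106 for Rps29 and from -0.144 to 0.00037 for Rps2. Depth is unknown, and scores near the last printed decimal, such as those of Rps28 and Rps29, have few steps of resolution.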

Other observations

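The 10 genes with Rps6k symbols and the 3 pseudogene symbols that the symbol rule leaves out were scored too. S6 kinases phosphorylate Rps6 and other targets. The 10 genes were grouped by symbol alone, and whether each of their products acts on Rps6 was not examined. Of the 10, 5 rose in N40K neurons and 0 fell (limma adjusted p under 0.05; 1, Rps6kl1, was lower at an unadjusted p under 0.05; all named after their values were seen), against 21.5% and 4.11% of all genes. Rps6kb1, which encodes the main S6 kinase downstream of mTOR, rose to 0.0192, 0.0210 and 0.0246 in N40K neurons, against 0.0127, 0.0129 and 0.0120 in control neurons (ratio 1.72, adjusted p = 0.00967). Rps6ka2, Rps6ka3, Rps6ka5 and Rps6kc1 rose 1.78-fold, 1.64-fold, 1.86-fold and 1.39-fold. Rps6kl1 scored 0.0156, 0.0171 and 0.0189 in N40K neurons and 0.0288, 0.0208 and 0.0248 in control neurons, with no overlap and an adjusted p of 0.0551.

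The rows named Rpl14-ps1, Rps10-ps1 and Rpl29-ps3 averaged 1.36 ± 0.547, 2.11 ± 0.0698 and 1.06 ± 0.335 in N40K neurons and 1.33 ± 0.182, 2.26 ± 0.245 and 0.583 ± 0.311 in control neurons (SD, n = 3 each). None passed the test, and only Rpl41, Rps21 and Rpl10a of the 80 members had mean scores above 1.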
